A study of Homo sapiens with 6 samples.

Results

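Sterols and fatty acids are built from acetyl-CoA by enzymes whose genes are switched on together by the sterol regulatory element binding proteins. The genes described here are 33 of this kind, named in a list and found by symbol among the 63677 genes of a count table. They hold 20 genes of sterol synthesis, counting the sterol carrier STARD4, 9 genes of fatty acid synthesis, desaturation and elongation, and 4 genes of the regulatory machinery. All 33 had enough counts to be tested, as did 19434 genes in all. Their RNA was measured in human embryonic stem cells of 2 lines, RH6 (Royan H6) and RH5 (Royan H5), in a naive and a primed state of pluripotency. Induction of the naive cells used what the labels call 2a2iL, after which they were carried in 2iL medium with trypsin passages. The primed cells were grown in medium with bFGF. Cells of both states grew on inactivated mouse embryonic fibroblasts (MEF). There were 2 libraries of naive RH6 (passage 10), 2 of naive RH5 (passage 17), 1 of primed RH6 (passage 20) and 1 of primed RH5 (passage 16). State and medium changed together and cannot be told apart. Passage number was lower in naive than in primed RH6 and higher by 1 in naive than in primed RH5. The labels name no separate cultures for the duplicates. The p-values therefore reflect the spread among these libraries alone, and that spread may be technical.

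The libraries held 13457979 to 14663982 counts. Levels are given as CPM, read counts scaled to a common library size after TMM adjustment. Of the counts, 0.526% to 0.566% fell on the 33 genes in the naive libraries and 0.359% and 0.361% in the primed libraries. Among 12 genes of pluripotent cells, POU5F1 (ENSG00000204531), the OCT4 gene, stood at 343 to 504 CPM in the naive libraries and 310.4 and 388 CPM in the primed libraries. DNMT3L (ENSG00000142182), a DNA methylation cofactor gene, stood at 21.4 to 26.8 CPM in the naive libraries and 0.403 and 0.579 CPM in the primed libraries. KLF17 (ENSG00000171872), a factor of naive cells, was at 0 in both primed libraries, at 0 and 0.147 CPM in naive RH6 and at 0.920 and 1.34 CPM in naive RH5. DNMT3L and KLF17 were called higher in naive cells, and SOX2, DPPA4, DNMT3B and ZIC2 were called lower. So 2 of the 12 rose and 4 fell, where 12.1% of all genes were called higher and 13.6% lower. The other 6 were not called, TFCP2L1 and KLF4 among them. The sum of the 12 was 4279 to 6034 CPM in the naive and 7252 and 7466 CPM in the primed libraries.

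In this pathway, SREBP-2 (gene SREBF2) acts mainly on genes of cholesterol synthesis and uptake, and SREBP-1 (SREBF1) mainly on genes of fatty acid synthesis. The precursors are held in the endoplasmic reticulum by SCAP and the INSIG proteins while membrane sterol is plentiful. When it falls, SCAP carries them to the Golgi, where proteases release the part that enters the nucleus. Sterol synthesis runs from acetyl-CoA through mevalonate to farnesyl diphosphate, then through squalene to lanosterol, and from lanosterol to cholesterol. Fatty acid synthesis starts from citrate or acetate, runs through malonyl-CoA to palmitate, and ends in desaturation and elongation. In embryonic stem cells both supply membrane for dividing cells.

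Upstream sequences are shown for INSIG1, MSMO1, IDI1 and HMGCS1, because they had the 4 largest changes of the 33 genes, and for SREBF2, because it was the only one of the 29 promoters searched with a match to the sterol element. Each is the 250 bases before the annotated start, 5′ to 3′ on the gene's strand, from RefSeq on GRCh38.p14, a later build than the one the submitters' processing notes name. Capitals mark the sterol regulatory element TCACNCCAC, the CCAAT box (CCAAT, or ATTGG on the other strand) and the E-box CACGTG.
INSIG1, chr7:155297628-155297877, plus strand: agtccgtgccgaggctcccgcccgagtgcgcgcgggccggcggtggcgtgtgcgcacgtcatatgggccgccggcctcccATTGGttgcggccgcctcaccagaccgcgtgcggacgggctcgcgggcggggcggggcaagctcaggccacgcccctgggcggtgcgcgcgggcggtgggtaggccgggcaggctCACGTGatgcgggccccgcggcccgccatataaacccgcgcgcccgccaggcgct
MSMO1, chr4:165327419-165327668, plus strand: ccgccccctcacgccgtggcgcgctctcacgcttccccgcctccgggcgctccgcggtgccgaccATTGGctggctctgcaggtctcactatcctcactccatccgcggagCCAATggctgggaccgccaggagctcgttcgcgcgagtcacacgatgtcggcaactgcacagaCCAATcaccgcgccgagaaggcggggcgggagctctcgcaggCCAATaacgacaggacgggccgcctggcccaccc
IDI1, chr10:1056705-1056954, minus strand: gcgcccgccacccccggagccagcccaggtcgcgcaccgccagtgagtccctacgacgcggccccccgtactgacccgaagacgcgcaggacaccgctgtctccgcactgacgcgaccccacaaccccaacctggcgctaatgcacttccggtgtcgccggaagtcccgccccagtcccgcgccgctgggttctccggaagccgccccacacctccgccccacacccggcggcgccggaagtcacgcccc
HMGCS1, chr5:43313413-43313662, minus strand: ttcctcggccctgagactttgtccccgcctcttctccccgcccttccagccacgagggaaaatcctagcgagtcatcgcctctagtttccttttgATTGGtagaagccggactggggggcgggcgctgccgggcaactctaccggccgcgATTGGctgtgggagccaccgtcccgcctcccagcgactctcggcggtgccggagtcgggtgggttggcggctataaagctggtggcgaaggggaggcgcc
SREBF2, chr22:41832855-41833104, plus strand: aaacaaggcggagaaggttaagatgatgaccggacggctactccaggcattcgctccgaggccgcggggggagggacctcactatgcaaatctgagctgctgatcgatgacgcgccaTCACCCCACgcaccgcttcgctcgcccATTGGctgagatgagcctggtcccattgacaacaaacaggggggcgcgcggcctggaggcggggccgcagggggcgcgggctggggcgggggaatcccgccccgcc

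MSMO1 has 4 CCAAT boxes in its window, HMGCS1 has 2, INSIG1 has 1 and IDI1 none. In SREBF2 the sterol element, read as TCACCCCAC, begins 133 bases before the start. Of the 33 genes, 29 had a promoter in the RefSeq table, 300 bases long with 50 bases after the start, and motifs were searched on both strands. SQLE, FDFT1, ACAT2 and FASN were not searched. A CCAAT box was present in 19 of the 29 (65.5%), against 35.7% of all 27305 promoters of that length. It was in 13 of 17 sterol promoters, 4 of 8 fatty acid promoters and 2 of 4 promoters of the regulators. The GC box GGGCGG was present in 25 of 29 (86.2%), against 44.6% of all promoters. That share is not particular to the 33. In lists described further below, the GC box was in 9 of 10 promoters of sterol uptake and transport genes. It was also in 8 of 9 promoters of liver X receptor and efflux genes. The sterol element was in 1 of 29 (3.45%), against 1.15% of all. Only the pattern TCACNCCAC was searched for it, so elements of other letters or outside the window would be missed. The E-box was in 5 of 29 (17.2%), against 7.43% of all, and was searched for only after the INSIG1 window had been read. These matches describe letters in the window and are not tested as sites.

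Over both lines, 23 of the 33 genes were higher in naive than in primed cells at an adjusted p under 0.05, in a test where 12.1% of all genes were called higher. None was called lower, against 13.6% of all genes. Sterol genes rose most often, with 17 of 20 called higher and a median log2 fold change of 0.90. Of the fatty acid genes, 5 of 9 were called higher, with a median of 0.49. Among the regulators, 1 of 4 was called higher, the sterol sensor partner INSIG1, with a median of 0.20 over the 4. The median of all genes tested was -0.01. The test was edgeR's quasi-likelihood test on the counts of the 6 libraries, with a term for the line. No member reached an unadjusted p of 0.05 in the lower direction either, and DESeq2 and limma-voom also called 0 lower. At least 2-fold higher were 8 of the 20 sterol genes, INSIG1 and none of the 9 fatty acid genes, against 6.49% of all genes. Every naive library stood above both primed libraries for 27 of the 33 genes, against 21.5% of all genes. These were 17 sterol genes, 8 fatty acid genes and 2 regulators, and no member had every naive library below both primed libraries, against 22.9% of all genes. Called higher were 8 of the 33 when the naive libraries of each line were summed, and 17 to 20 when any 1 naive library was left out. Genes called in either direction numbered 1127 and 2961 to 3345 in these fits, against 4996 in the main fit. Without the primed library of a line, that line holds no contrast of state, and the fitted change comes from the other line alone. Values given below without primed RH6 are thus effects in RH5, and those without primed RH5 are effects in RH6. They are no check on the effect over both lines. Bulk RNA cannot tell apart a change in RNA per cell from a change in how many cells of a type the culture held.

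**Figure D1:**
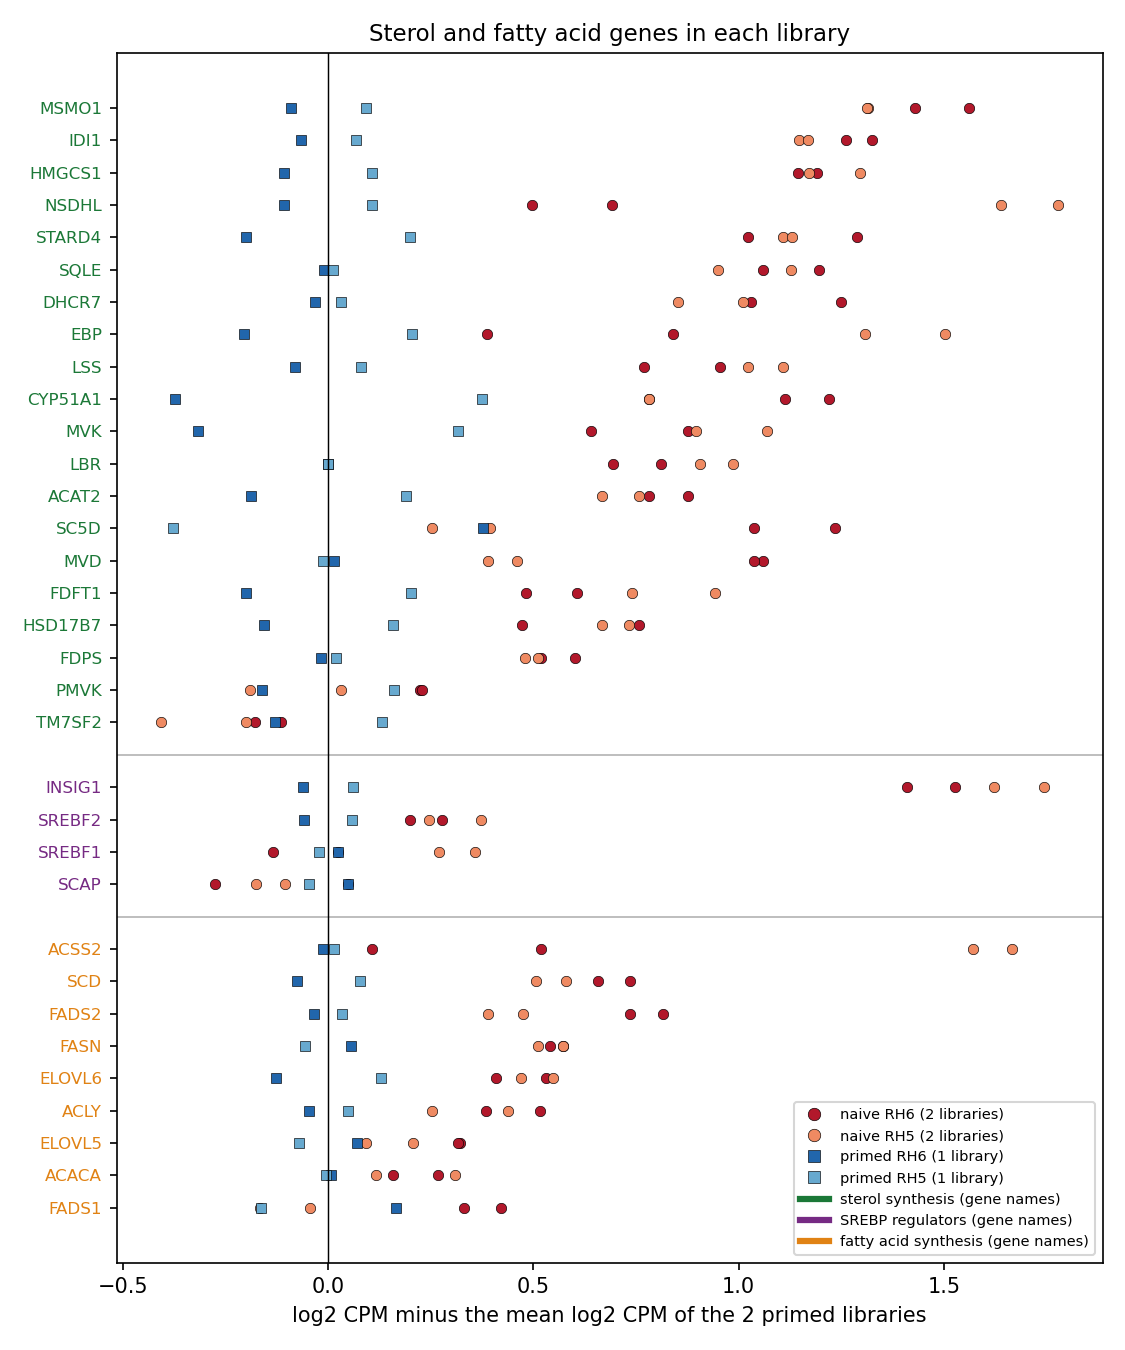
Level of each of the 33 genes in each of the 6 libraries, as log2 CPM minus the mean log2 CPM of the 2 primed libraries; circles are naive and squares primed libraries, and genes are ordered by log2 fold change within sterol synthesis, SREBP regulators and fatty acid synthesis. For 27 genes all 4 circles lie to the right of both squares, and most sterol genes lie farther to the right than most fatty acid genes.

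The early steps of sterol synthesis, from acetyl-CoA to farnesyl diphosphate, held 7 of the genes, of which 6 rose, with a median log2 fold change of 0.76. IDI1 (ENSG00000067064), which interconverts the 5-carbon isoprenoid units, stood at 141 and 135 CPM in naive RH6, 124 and 126 CPM in naive RH5, 53.6 CPM in primed RH6 and 58.8 CPM in primed RH5. Its lowest naive library was above both primed libraries, and the log2 fold change was 1.22 ± 0.11 (SE, adjusted p = 5.99e-04). HMGCS1 (ENSG00000112972), the HMG-CoA synthase, an early enzyme of the mevalonate pathway, stood at 539.7 and 523 CPM in naive RH6, 533 and 580.4 CPM in naive RH5, 219.6 CPM in primed RH6 and 255 CPM in primed RH5. The naive libraries of both lines were close to each other, and the gene rose by 1.20 ± 0.11 (SE, adjusted p = 5.57e-04) on the log2 scale, 2.298-fold. MVK (ENSG00000110921), mevalonate kinase, was a low gene, at 7.36 and 6.26 CPM in naive RH6, 8.42 and 7.47 CPM in naive RH5, 3.22 CPM in primed RH6 and 4.998 CPM in primed RH5. Its groups did not overlap, and the log2 fold change was 0.86 ± 0.21 (SE, adjusted p = 0.0261). ACAT2 (ENSG00000120437), the cytosolic thiolase that makes acetoacetyl-CoA, stood at 103 and 96.7 CPM in naive RH6, 95.1 and 89.2 CPM in naive RH5, 49.3 CPM in primed RH6 and 64.1 CPM in primed RH5. It rose by 0.76 ± 0.14 (SE, adjusted p = 0.00849). ACAT2 overlaps TCP1 (ENSG00000120438) on the opposite strand, and the strand setting of the counting is not given in the sources used here. TCP1 itself had a log2 fold change of 0.36 (adjusted p = 0.0642). In RH6 alone TCP1 was called higher, by 0.53 (adjusted p = 0.00490), where ACAT2 rose by 1.02. In RH5 TCP1 had 0.18 and was not called, while ACAT2 rose by 0.52.

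MVD (ENSG00000167508), which decarboxylates mevalonate diphosphate, stood at 22.7 and 22.4 CPM in naive RH6, 14.995 and 14.3 CPM in naive RH5, 11.002 CPM in primed RH6 and 10.8 CPM in primed RH5. Naive RH6 was higher than naive RH5, both were above the primed libraries, and the fitted change was 0.73 ± 0.18 (SE, adjusted p = 0.0249). FDPS (ENSG00000160752), which makes farnesyl diphosphate, stood at 48.0 and 45.3 CPM in naive RH6, 45.1 and 44.1 CPM in naive RH5, 31.2 CPM in primed RH6 and 32.0 CPM in primed RH5. All naive libraries were above both primed ones, by 0.53 ± 0.11 (SE, adjusted p = 0.0131) on the log2 scale. PMVK (ENSG00000163344), phosphomevalonate kinase, was the only one of the 7 that was not called. It ranged over 7.10 to 9.49 CPM in the naive libraries and 7.25 and 9.05 CPM in the primed libraries, which overlap, with a log2 fold change of 0.07 ± 0.21 (SE, adjusted p = 0.841). That value was -0.23 without primed RH6 and -0.014 with upper-quartile scaling. The calls of MVK and MVD were among the least stable. MVK lost its call without any 1 of the 4 naive libraries (adjusted p = 0.0521 to 0.0883, edgeR). MVD, whose log2 fold change was 0.45 without primed RH6, lost its call without either naive RH6 library or naive RH5 replicate 1 (0.0698 to 0.0803). FDPS lost it without naive RH5 replicate 1 (adjusted p = 0.0551).

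All 3 genes of the squalene steps rose, with a median log2 fold change of 0.97. SQLE (ENSG00000104549), squalene epoxidase, a rate-limiting enzyme of the pathway, stood at 244 and 268 CPM in naive RH6, 226 and 256 CPM in naive RH5, 116 CPM in primed RH6 and 118 CPM in primed RH5. The primed libraries of both lines were nearly equal and the naive ones stood clear of them, by 1.08 ± 0.11 (SE, adjusted p = 9.35e-04). LSS (ENSG00000160285), which closes the rings to lanosterol, stood at 64.6 and 56.8 CPM in naive RH6, 71.9 and 67.7 CPM in naive RH5, 31.5 CPM in primed RH6 and 35.3 CPM in primed RH5. It rose by 0.97 ± 0.11 (SE, adjusted p = 0.00156) with no overlap. FDFT1 (ENSG00000079459), which joins farnesyl units to squalene, stood at 219.7 and 202 CPM in naive RH6, 277 and 241 CPM in naive RH5, 126 CPM in primed RH6 and 166 CPM in primed RH5. It was highest in naive RH5, and in each line the naive libraries were above the primed one, with a fitted change of 0.69 ± 0.11 (SE, adjusted p = 0.00497).

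From lanosterol to cholesterol, 7 of 9 genes rose, with a median log2 fold change of 0.93. MSMO1 (ENSG00000052802), which starts the removal of the methyl groups at carbon 4, stood at 144 and 131 CPM in naive RH6, 122 and 121 CPM in naive RH5, 45.8 CPM in primed RH6 and 52.0 CPM in primed RH5. It had the largest change of the 20 sterol genes, 1.401 ± 0.13 (SE, adjusted p = 5.83e-04), or 2.64-fold. NSDHL (ENSG00000147383), which acts after MSMO1 in the same removal, stood at 17.9 and 20.5 CPM in naive RH6, 43.6 and 39.6 CPM in naive RH5, 11.8 CPM in primed RH6 and 13.7 CPM in primed RH5. The naive RH5 libraries stood far above the naive RH6 ones, which were above both primed libraries. Over both lines it rose by 1.14 ± 0.22 (SE, adjusted p = 0.0112), and by 0.73 without primed RH5. HSD17B7 (ENSG00000132196), the ketoreductase of the same complex, stood at 14.2 and 11.6 CPM in naive RH6, 13.9 and 13.3 CPM in naive RH5, 7.51 CPM in primed RH6 and 9.34 CPM in primed RH5. It rose by 0.66 ± 0.17 (SE, adjusted p = 0.0302), and that call was lost without any 1 naive library (adjusted p = 0.0643 to 0.0935, edgeR). Its 2 pseudogene copies held 9.21% of the counts of gene and copies.

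DHCR7 (ENSG00000172893), the last enzyme of one branch to cholesterol, stood at 84.2 and 72.3 CPM in naive RH6, 71.4 and 64.0 CPM in naive RH5, 34.7 CPM in primed RH6 and 36.2 CPM in primed RH5. It rose by 1.04 ± 0.13 (SE, adjusted p = 0.00207) with no overlap of the groups. EBP (ENSG00000147155), a sterol isomerase, stood at 52.3 and 38.2 CPM in naive RH6, 82.8 and 72.3 CPM in naive RH5, 25.4 CPM in primed RH6 and 33.7 CPM in primed RH5. It was highest in naive RH5 and above both primed libraries in every naive library, with a fitted change of 1.02 ± 0.17 (SE, adjusted p = 0.00671). LBR (ENSG00000143815), a sterol reductase that is also an inner nuclear membrane protein, stood at 204 and 188 CPM in naive RH6, 218 and 229.8 CPM in naive RH5, 116 CPM in primed RH6 and 116 CPM in primed RH5. It rose by 0.85 ± 0.11 (SE, adjusted p = 0.00197). SC5D (ENSG00000109929), a sterol desaturase, stood at 484 and 422 CPM in naive RH6, 270.2 and 245 CPM in naive RH5, 267 CPM in primed RH6 and 158 CPM in primed RH5. Primed RH6 lay within the range of naive RH5, so the groups overlapped, while in each line the naive libraries were above the primed one, by 0.73 ± 0.11 (SE, adjusted p = 0.00408). Without the term for the line, SC5D, NSDHL, EBP, MVD and MVK lost their calls (adjusted p = 0.0589 to 0.173), which left 18 of the 33 genes called higher. That fit called 3556 genes in either direction, against 4996 with the term. TM7SF2 (ENSG00000149809), a sterol reductase with the same activity as LBR, did not pass the test. It ranged over 18.2 to 22.3 CPM in the naive libraries and 22.1 and 26.4 CPM in the primed libraries, with a log2 fold change of -0.23 ± 0.15 (SE, adjusted p = 0.313), which turned to 0.012 without primed RH5.

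CYP51A1 (ENSG00000001630), the lanosterol demethylase, could not be measured well in this table. It had 109 counts over the 6 libraries, and 3 pseudogene copies held 2060, or 94.97% of the counts of gene and copies. The gene alone had a log2 fold change of 0.93 ± 0.39 (SE, adjusted p = 0.125), which was not called, and which was 0.41 without primed RH6 and 1.56 without primed RH5. With gene and copies summed, an alternative chosen after seeing the data, the counts were 469 and 489 in naive RH6, 327 and 432 in naive RH5, 281 in primed RH6 and 171 in primed RH5. The sum rose by 1.01 ± 0.18 (SE, adjusted p = 0.00787). Which copy the reads came from is uncertain. STARD4 (ENSG00000164211), which carries cholesterol between membranes, stood at 118 and 97.8 CPM in naive RH6, 104 and 105 CPM in naive RH5, 41.9 CPM in primed RH6 and 55.3 CPM in primed RH5. It rose by 1.13 ± 0.15 (SE, adjusted p = 0.00224) with no overlap. The antisense gene STARD4-AS1 (ENSG00000246859) had a log2 fold change of -0.30 over both lines and 0.22 in RH6, neither called, and was called lower in RH5, at -0.78 (adjusted p = 0.00640). With the strand setting not given, its reads could not be told apart where they overlap STARD4.

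Of the 4 regulators, only INSIG1 (ENSG00000186480), which retains SCAP and the SREBP precursors in the endoplasmic reticulum and is itself an SREBP target, rose. It stood at 105 and 96.3 CPM in naive RH6, 112 and 121 CPM in naive RH5, 34.8 CPM in primed RH6 and 37.8 CPM in primed RH5. Its change of 1.58 ± 0.11 (SE, adjusted p = 2.20e-04), or 2.98-fold, was the largest of all 33 genes, with no overlap. SREBF2 (ENSG00000198911), the SREBP-2 gene, stood at 140.1 and 133 CPM in naive RH6, 149.5 and 137 CPM in naive RH5, 111 CPM in primed RH6 and 120.3 CPM in primed RH5. The naive libraries were all above the primed ones, yet the log2 fold change of 0.27 ± 0.10 (SE, adjusted p = 0.0808) missed the threshold. SREBF1 (ENSG00000072310), the SREBP-1 gene, stood at 39.5 and 44.1 CPM in naive RH6, 55.6 and 52.3 CPM in naive RH5, 44.1 CPM in primed RH6 and 42.7 CPM in primed RH5. Naive RH5 was above the primed libraries and naive RH6 lay close to them, with 1 library below both, with a fitted change of 0.13 ± 0.13 (SE, adjusted p = 0.539), which became -0.049 without primed RH5. SCAP (ENSG00000114650), the escort of the precursors, stood at 55.7 and 44.5 CPM in naive RH6, 50.1 and 47.7 CPM in naive RH5, 55.7 CPM in primed RH6 and 52.2 CPM in primed RH5. The groups overlapped and the log2 fold change was -0.12 ± 0.12 (SE, adjusted p = 0.517). These are mRNA levels, and cleavage of the precursors was not measured.

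Among the genes that make malonyl-CoA and palmitate, 2 of 4 rose, with a median log2 fold change of 0.47. FASN (ENSG00000169710), fatty acid synthase, stood at 769 and 753 CPM in naive RH6, 769.6 and 737 CPM in naive RH5, 538 CPM in primed RH6 and 498 CPM in primed RH5. The 4 naive libraries lay close together, above both primed ones, by 0.55 ± 0.10 (SE, adjusted p = 0.00838). ACLY (ENSG00000131473), which splits citrate to acetyl-CoA, stood at 493 and 450.5 CPM in naive RH6, 468 and 411 CPM in naive RH5, 334 CPM in primed RH6 and 356 CPM in primed RH5. Its rise of 0.40 ± 0.11 (SE, adjusted p = 0.0413) was near the threshold and was lost without any 1 naive library (adjusted p = 0.0532 to 0.138) or with upper-quartile scaling. ACACA (ENSG00000132142), the acetyl-CoA carboxylase that commits carbon to fatty acids, ranged over 157 to 179.7 CPM in the naive libraries and 144 and 146 CPM in the primed libraries. The ranges did not overlap, and the log2 fold change of 0.21 ± 0.10 (SE, adjusted p = 0.177) was not called. ACSS2 (ENSG00000131069), which activates acetate, stood at 10.4 and 7.80 CPM in naive RH6, 23.0 and 21.5 CPM in naive RH5, 7.18 CPM in primed RH6 and 7.32 CPM in primed RH5. Naive RH5 was well above the rest and naive RH6 was just above the primed libraries. The change over both lines, 0.95 ± 0.31 (SE, adjusted p = 0.0619), was not called. It was 1.61 without primed RH6 and 0.37 without primed RH5. DESeq2 (adjusted p = 0.0212) and limma-voom (0.0340) called it.

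Of the desaturases, 2 of 3 rose. SCD (ENSG00000099194), which makes oleate from stearate, stood at 542 and 514 CPM in naive RH6, 487 and 462 CPM in naive RH5, 309 CPM in primed RH6 and 344 CPM in primed RH5. It rose by 0.62 ± 0.11 (SE, adjusted p = 0.00908) with no overlap, and its pseudogene held 1.30% of the counts of both. FADS2 (ENSG00000134824), the first enzyme of polyunsaturated fatty acid synthesis, stood at 181 and 172 CPM in naive RH6, 143 and 135 CPM in naive RH5, 101 CPM in primed RH6 and 106 CPM in primed RH5. It rose by 0.60 ± 0.13 (SE, adjusted p = 0.0140), and more in RH6 than in RH5, though that difference was not called. FADS1 (ENSG00000149485), its neighbour in the pathway, did not pass the test. It ranged over 180.4 to 271 CPM in the naive libraries and 181 and 227 CPM in the primed libraries, with a log2 fold change of 0.14 ± 0.10 (SE, adjusted p = 0.370). Of the elongases, ELOVL6 (ENSG00000170522), which lengthens palmitate, stood at 226 and 208 CPM in naive RH6, 217 and 229 CPM in naive RH5, 143 CPM in primed RH6 and 171 CPM in primed RH5. It rose by 0.49 ± 0.11 (SE, adjusted p = 0.0163). ELOVL5 (ENSG00000012660), which acts on polyunsaturated chains, ranged over 229 to 269 CPM in the naive libraries and 205 and 226 CPM in the primed libraries. These ranges did not overlap, and the log2 fold change of 0.23 ± 0.09 (SE, adjusted p = 0.113) was not called. Without naive RH6 replicate 2, FADS2 and ELOVL6 lost their calls (adjusted p = 0.0521 and 0.0515), and 2 of the 9 fatty acid genes were called higher in place of 5. Over all genes, 3020 were then called in either direction, against 4996 in the main fit.

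Sterol and fatty acid genes were also compared by their summed level in each library. The 20 sterol genes summed to 2541 and 2369 CPM in naive RH6, 2352 and 2344 CPM in naive RH5, 1222 CPM in primed RH6 and 1256 CPM in primed RH5. The naive mean was 1.94 times the primed mean, 2.01 times in RH6 and 1.87 times in RH5. The 9 fatty acid genes summed to 2937 and 2789 CPM in naive RH6, 2696 and 2598 CPM in naive RH5, 2031 CPM in primed RH6 and 2012 CPM in primed RH5. There the ratio was 1.36, with 1.41 in RH6 and 1.32 in RH5. Both sums were higher in every naive library than in either primed one, and the ratio was larger for the sterol genes in both lines. The 4 regulators summed to 318 to 367 CPM in the naive and 246 and 253 CPM in the primed libraries, a ratio of 1.39, and INSIG1 made most of that difference. The median log2 fold change was 0.84 to 0.96 for the sterol genes and 0.45 to 0.52 for the fatty acid genes when any 1 naive library was left out. These fits share most of their libraries, so the ranges do not measure the uncertainty of the difference. By line, the medians were 0.98 and 0.50 in RH6 and 0.80 and 0.38 in RH5. The difference between the sets is a description of these genes and was not tested. A sum of CPM weighs abundant and long transcripts most.

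**Figure D2:**
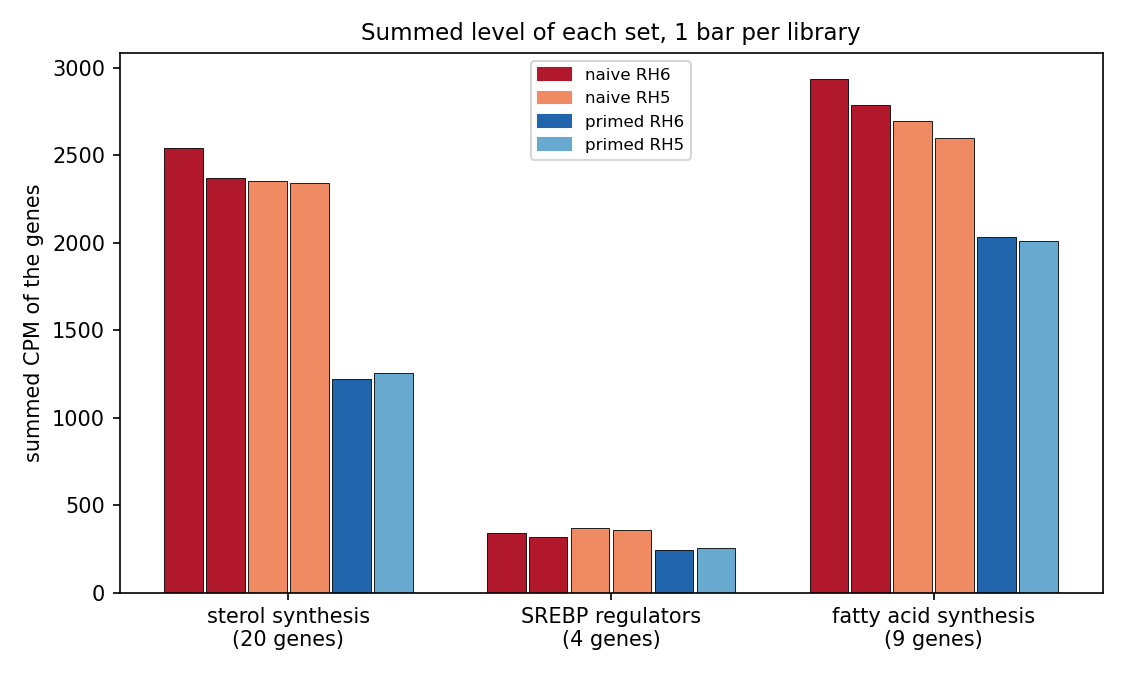
Summed CPM of the 20 sterol synthesis genes, the 4 SREBP regulators and the 9 fatty acid synthesis genes, with 1 bar for each of the 6 libraries and no error bars since each bar is 1 library. The sterol sum is 1.94 times as high in naive as in primed libraries on average, and the fatty acid sum 1.36 times.

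Line by line, the rise was present in both. In RH6, 24 of the 33 genes were called higher, against 16.4% of all genes, made of 18 sterol genes, 5 fatty acid genes and INSIG1. In RH5, 20 were called higher, against 16.5% of all genes, made of 14 sterol genes, 5 fatty acid genes and INSIG1. None was called lower in either line, against 17.2% of all genes in RH6 and 17% in RH5. At an unadjusted p under 0.05 the lower genes were 0 in RH6 and 1 in RH5, TM7SF2, and DESeq2 and limma-voom called 0 lower in both lines. In RH5, 1 of the 33 was called lower with upper-quartile scaling and without either naive RH6 library or naive RH5 replicate 1. These contrasts take their spread from the naive duplicates, so the single primed library of a line is taken to vary as much as they do. The log2 fold changes of INSIG1 were 1.53 ± 0.13 (SE, adjusted p = 1.42e-05) in RH6 and 1.62 ± 0.13 (SE, adjusted p = 1.17e-05) in RH5. Those of MSMO1 were 1.59 ± 0.13 (SE, adjusted p = 7.93e-06) and 1.22 ± 0.13 (SE, adjusted p = 5.10e-05). HMGCS1 gave 1.27 ± 0.12 (SE, adjusted p = 2.58e-05) and 1.13 ± 0.12 (SE, adjusted p = 6.82e-05). The difference between the lines was -0.09 for INSIG1, 0.36 for MSMO1 and 0.15 for HMGCS1, and none of the 3 was called. CYP51A1, MVD, MVK, HSD17B7 and ACLY were called in RH6 and not in RH5, and ACSS2 in RH5 and not in RH6. Of these, only the ACSS2 effect differed between the lines at the threshold. MVK, HSD17B7 and CYP51A1 in RH6, and FDPS, FADS2 and ELOVL6 in RH5, were not called by DESeq2. CYP51A1 in RH6 also lost its call with limma-voom (adjusted p = 0.0576), upper-quartile scaling (0.0525) and without either naive RH6 library (0.0888 and 0.0635). In RH5, FADS2 lost its call without naive RH5 replicate 1 (adjusted p = 0.103), and ELOVL6 without naive RH5 replicate 2 (0.102) or with upper-quartile scaling (0.0601).

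Whether the rise differed between the lines was tested directly, and a difference was called for 2 of the 33 genes, both with a smaller rise in RH6, against 6.16% of all genes called in that direction. NSDHL rose by 0.70 ± 0.17 (SE, adjusted p = 0.00973) in RH6 and by 1.60 ± 0.17 (SE, adjusted p = 5.90e-05) in RH5, a difference of -0.90 ± 0.23 (SE, adjusted p = 0.0338). ACSS2 had 0.34 ± 0.22 (SE, adjusted p = 0.273) in RH6 and 1.60 ± 0.22 (SE, adjusted p = 3.31e-04) in RH5, a difference of -1.26 ± 0.31 (SE, adjusted p = 0.0266). With DESeq2 neither difference was called (adjusted p = 0.145 for NSDHL and 0.106 for ACSS2). No gene was called with a larger rise in RH6, against 5.86% of all genes. MVD, STARD4, ACAT2 and FADS2 had an unadjusted p under 0.05 in that direction, DESeq2 and limma-voom called 0, and 2 sterol genes were called without naive RH6 replicate 2. In sign alone, 23 of the 33 effects were larger in RH6, against 9704 of all 19434 genes. All these differences rest on the same single primed library of each line. Markers of other cell types differed between the lines as well. Of 15 mesendoderm and endoderm markers tested, 12 were higher and 2 lower in naive RH6, 4 were higher and 8 lower in naive RH5, and 11 were called with a larger effect in RH6. Of 11 neural markers tested, 1 was higher and 9 lower in naive RH6, 3 were higher and 4 lower in naive RH5, and 5 were called with a lower effect in RH6. Their part in the effects by line was not tested.

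The naive cultures of the lines were compared directly as well. In naive RH6, 4 of the 33 genes were higher than in naive RH5, against 12% of all genes, and 4 were lower, against 13.5% of all genes. Higher in naive RH6 were SC5D, by 0.81 ± 0.10 (SE, adjusted p = 3.30e-04), MVD, by 0.62 ± 0.13 (SE, adjusted p = 0.00594), FADS1, by 0.48 ± 0.09 (SE, adjusted p = 0.00446), and FADS2, by 0.34 ± 0.09 (SE, adjusted p = 0.0206). Lower in naive RH6 were ACSS2 at -1.29 ± 0.17 (SE, adjusted p = 3.50e-04), NSDHL at -1.11 ± 0.13 (SE, adjusted p = 1.59e-04), EBP at -0.78 ± 0.15 (SE, adjusted p = 0.00346) and SREBF1 at -0.37 ± 0.11 (SE, adjusted p = 0.0305). The calls of SREBF1 and FADS2 were lost without naive RH6 replicate 1 or naive RH5 replicate 1, and that of FADS2 also without naive RH5 replicate 2. DESeq2 did not call MVD (adjusted p = 0.0600), SREBF1 (0.138) or FADS2 (0.0534). SC5D differed the same way between the primed libraries, by a log2 ratio of 0.76 for primed RH6 over primed RH5, and FADS1 by 0.33. For NSDHL that ratio was -0.21, for ACSS2 -0.03, for EBP -0.41 and for MVD 0.03. With 1 primed library a line, these ratios have no replicate check.

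**Figure D3:**
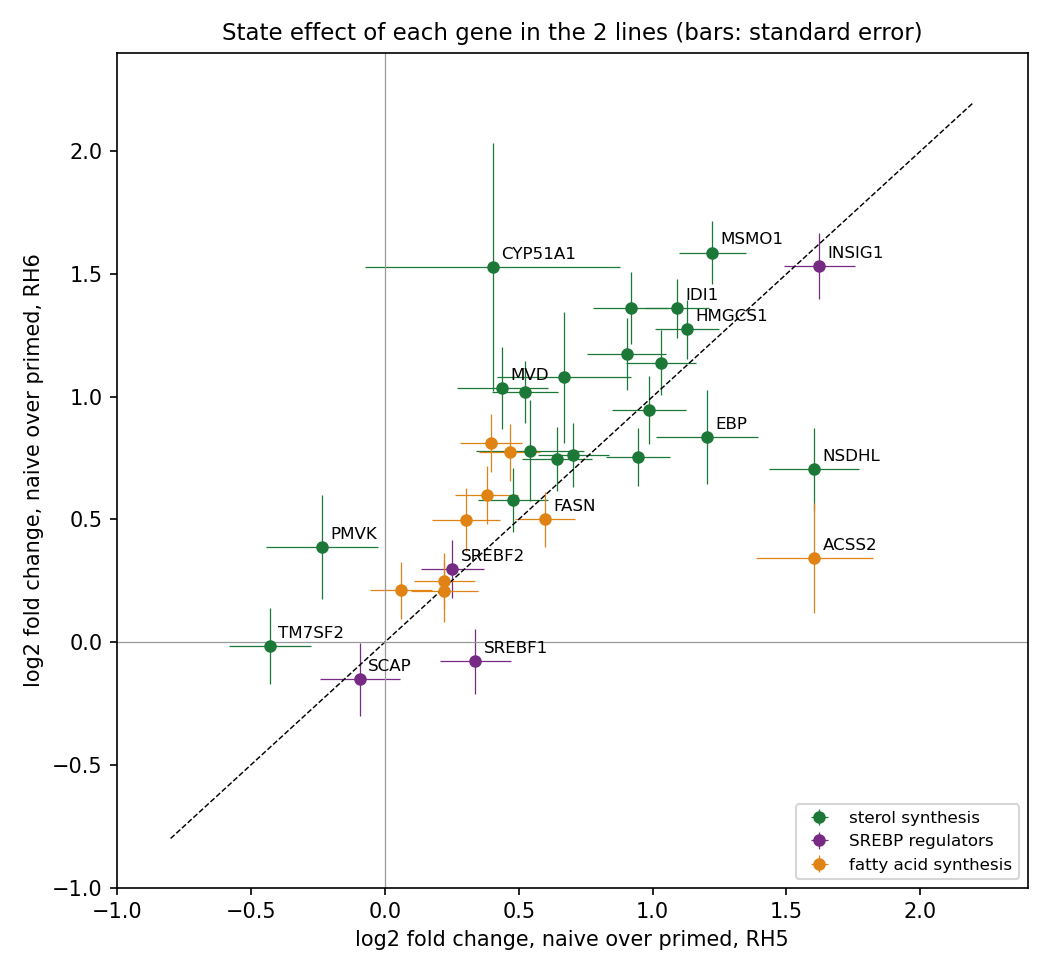
Log2 fold change of naive over primed for each of the 33 genes, RH5 on the horizontal and RH6 on the vertical axis, with standard errors as bars and the line of equal effect dashed. INSIG1, HMGCS1, IDI1 and MSMO1 lie near the line, while NSDHL and ACSS2 lie to its right, with smaller rises in RH6.

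Genes around the pathway were taken from lists of genes that are not among the 33, and their counts stand beside the 12.1% of all genes called higher and 13.6% called lower. Of 17 further genes of sterol synthesis and SREBP processing, 6 were higher and 1 lower, with a median log2 fold change of 0.15. MBTPS2 (ENSG00000012174), the protease that makes the second cut in the SREBP precursors, rose by 1.09 ± 0.21 (SE, adjusted p = 0.00992), and lost its call without the term for the line (adjusted p = 0.0806). Of 10 genes that use farnesyl diphosphate for products other than sterols, 0 were higher and 1 lower, FNTA (ENSG00000168522), a farnesyltransferase subunit, at -0.39 ± 0.10 (SE, adjusted p = 0.0318). Its call was lost in 7 of 13 alternatives, leaving out naive RH6 replicate 2, either naive RH5 library or primed RH5 among them, and the median of the 10 was 0.04.

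Of 14 genes of sterol uptake and transport that could be tested, 6 were higher and 1 lower, with a median of 0.18. GRAMD1C (ENSG00000178075), a membrane sterol carrier, was lower, at -1.30 ± 0.38 (SE, adjusted p = 0.0454), a call lost without the term for the line or any 1 naive library. Its value was -0.66 without primed RH6 and -1.92 without primed RH5. Of 11 genes controlled by or acting with the liver X receptors, which sense oxidised sterols, 6 were lower and 1 higher, with a median of -0.66. Their summed level was 184 to 204 CPM in the naive and 332 and 337 CPM in the primed libraries. ABCG1 (ENSG00000160179), a sterol exporter, had 1, 2, 1 and 0 counts in the naive and 20 and 12 in the primed libraries, a fitted change of -3.80 ± 0.62 (SE, adjusted p = 0.00578). ABCA5 (ENSG00000154265), a related transporter, stood at 1.402 and 0.957 CPM in naive RH6, 1.98 and 1.94 CPM in naive RH5, 11.7 CPM in primed RH6 and 7.75 CPM in primed RH5, a change of -2.65 ± 0.33 (SE, adjusted p = 0.00197). That change was -1.97 without primed RH6 and -3.27 without primed RH5. ABCG4 (ENSG00000172350), another of the family, had -2.27 ± 0.66 (SE, adjusted p = 0.0438), a call lost with DESeq2, without the term for the line, either naive RH6 library, naive RH5 replicate 1 or primed RH6, where its value was -1.25. It was -3.72 without primed RH5. ABCA1 (ENSG00000165029), the main cholesterol exporter, was named after its values were seen. It stood at 21.6 and 16.6 CPM in naive RH6, 31.6 and 29.7 CPM in naive RH5, 91.0 CPM in primed RH6 and 105 CPM in primed RH5, a change of -2.02 ± 0.15 (SE, adjusted p = 3.09e-04). The gene that rose was SMPDL3A (ENSG00000172594), a phosphodiesterase gene, at 1.82 ± 0.37 (SE, adjusted p = 0.0129), likewise named after its values were seen.

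Lists of other fatty acid, glycerolipid and oxidation genes held calls in both directions, where 12.1% of all genes were called higher and 13.6% lower. Of 24 other genes of fatty acid synthesis and elongation, 7 were higher and 7 lower, with a median of 0.01. ME1 (ENSG00000065833), malic enzyme, which supplies NADPH for the synthesis, stood at 37.0 and 35.6 CPM in naive RH6, 55.6 and 51.2 CPM in naive RH5, 6.57 CPM in primed RH6 and 9.92 CPM in primed RH5. It rose by 2.44 ± 0.13 (SE, adjusted p = 9.66e-05), the largest change of the list. MLXIPL (ENSG00000009950), the gene of the glucose-responsive factor ChREBP, was lower, at -2.43 ± 0.58 (SE, adjusted p = 0.0232). That value was -1.09 without primed RH6 and -3.90 without primed RH5, and the call was lost without either naive RH6 library. ACSL6 (ENSG00000164398), an acyl-CoA synthetase gene, was lower, at -2.34 ± 0.42 (SE, adjusted p = 0.00815). Of 16 genes of glycerolipid and phospholipid assembly, 1 was higher and 3 lower, with a median of -0.19. PCYT2 (ENSG00000185813), of phosphatidylethanolamine synthesis, had 0.87 ± 0.17 (SE, adjusted p = 0.0105), and the acyltransferase genes AGPAT2 (ENSG00000169692) and AGPAT5 (ENSG00000155189) had -1.05 ± 0.22 (SE, adjusted p = 0.0133) and -0.76 ± 0.20 (SE, adjusted p = 0.0326). AGPAT2 lost its call without either naive RH6 library, and AGPAT5 without the term for the line, naive RH6 replicate 2 or either naive RH5 library. The value of AGPAT5 was -0.24 without primed RH5 and -1.19 without primed RH6. Of 20 genes of mitochondrial fatty acid oxidation, 1 was higher and 4 lower, with a median of 0.05. CPT1C (ENSG00000169169), a carnitine palmitoyltransferase relative found in neurons, stood at 2.03 and 1.03 CPM in naive RH6, 1.84 and 1.34 CPM in naive RH5, 22.7 CPM in primed RH6 and 12.9 CPM in primed RH5, a change of -3.46 ± 0.31 (SE, adjusted p = 5.57e-04). PPARA (ENSG00000186951), a receptor that drives fatty acid oxidation, had -1.12 ± 0.27 (SE, adjusted p = 0.0239), a call lost without either naive RH6 library or naive RH5 replicate 2. Its value was -0.64 without primed RH6. PPARGC1A (ENSG00000109819), a coactivator of mitochondrial genes, had 0.77 ± 0.15 (SE, adjusted p = 0.0109), lost without the term for the line (0.0659). Summing the naive libraries of each line left ABCG1, ABCA5, ABCA1, ME1 and CPT1C called among the genes named from these lists.

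**Figure D4:**
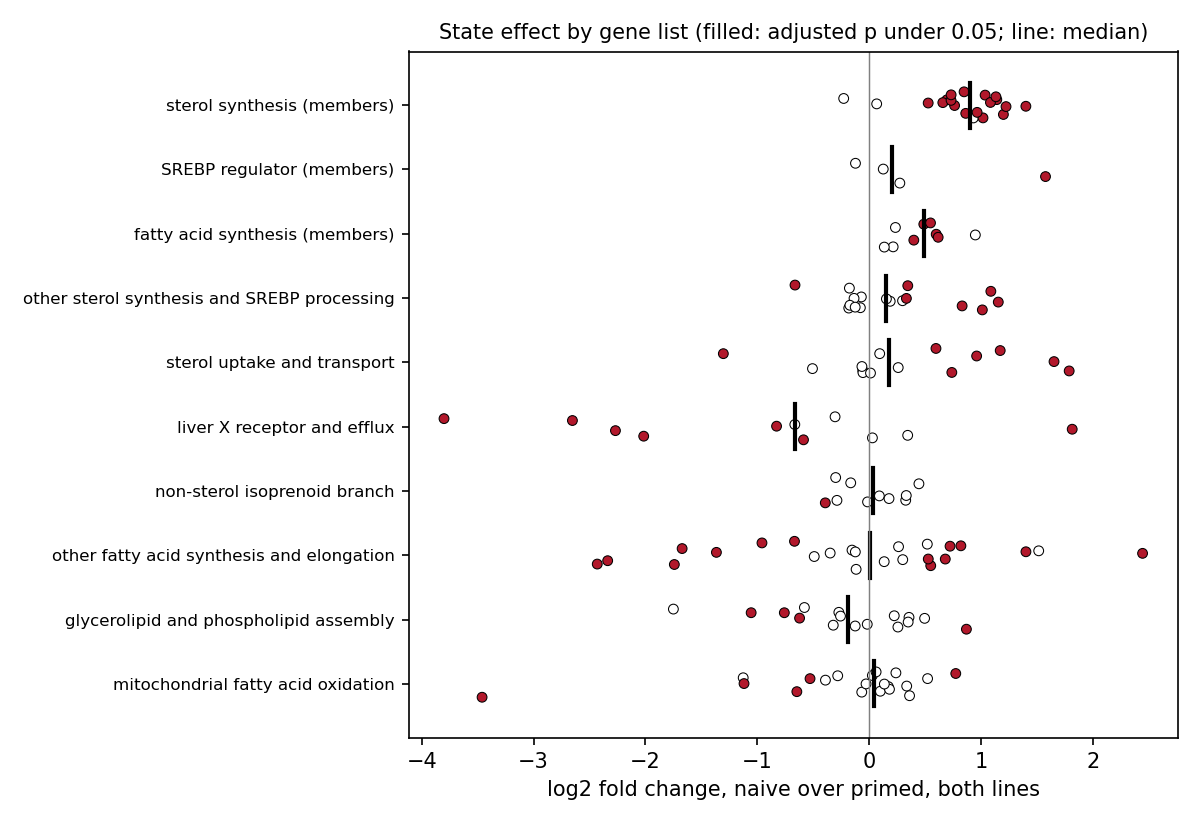
Log2 fold change of naive over primed over both lines for each tested gene of 10 lists, the 3 upper lists holding the 33 genes; filled points passed an adjusted p of 0.05 and the bar is the list's median. The sterol synthesis genes have the highest median, 0.90, and the liver X receptor and efflux genes the lowest, -0.66.

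Markers of other cell types were counted in the same test, where 12.1% of all genes were called higher and 13.6% lower. Of 15 fibroblast markers, 13 were tested, 8 were higher and 1 lower in naive cells, and their sum was 690.1 to 1260.1 CPM in the naive and 371 and 380.3 CPM in the primed libraries. Of 12 trophectoderm and amnion markers, 10 were tested, 6 were higher and 1 lower, and their sum was 494 to 602 CPM in the naive and 144 and 192 CPM in the primed libraries. Of 13 neural markers, 11 were tested, 0 were higher and 5 lower, and their sum was 576 to 1126 CPM in the naive and 528 and 717 CPM in the primed libraries, which overlap. Of 16 mesendoderm and endoderm markers, 15 were tested, 2 were higher and 2 lower (shares near those of all genes), and their sum was 314 to 413 CPM in the naive and 59.0 and 339.8 CPM in the primed libraries. No marker was at 0 in all 6 libraries. DCN and FAP, of fibroblasts, were at or under 0.598 CPM in each library, and ELF5 and VGLL1, of trophectoderm, at or under 0.448 CPM. SIX6, of the neural list, was at 0 in all 4 naive libraries, and CGA and ELF5, of trophectoderm, in both primed libraries. ALB, of endoderm, was at 0 in 5 of the 6 libraries. The part of these cell types in the changes of the 33 genes was not tested. Cells of both states grew on MEF, and any share of mouse reads in the fibroblast markers was not tested.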

How the data were processed

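RNA sequencing counts from naive and primed cells of the human embryonic stem cell lines RH6 and RH5 were analysed, grouped by the sample titles. The values the authors deposited are raw counts of reads for each of 63677 genes, as whole numbers, listed by Ensembl identifier and symbol. Per the submitters' processing notes, the tools were STAR 2.4.0a, featureCounts 1.4.5-p1 (Subread), FastQC and DESeq2. The builds named there are GRCh37.p5 and hg19. Per the labels' protocols, the kit was stranded and for total RNA, while the molecule field says polyA RNA. Neither the annotation nor the strand setting of the counts is given in the sources used here.

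Symbols matched 36 rows, and 3 further rows of ACLY, EBP and NSDHL were at 0 in every library and were not used. The quasi-likelihood F-test of edgeR 4.0.16 (R 4.3.3) was run on the counts, with TMM factors of 0.964 to 1.03 and filterByExpr (minimum count 10, minimum total 15). The fit over both lines had a term for the line, a biological coefficient of variation of 0.189 and 3 residual degrees of freedom. The fit with 1 mean per group gave the effects by line, their difference and naive RH6 against naive RH5, where that coefficient was 0.0964 on 2 residual degrees of freedom. Tests were two-sided, p-values were Benjamini-Hochberg adjusted over all 19434 genes tested, and calls were made at 0.05. The scripts were tested on simulated data.

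The naive duplicates differed by a chi-square per gene of 9.22 (RH6) and 5.76 (RH5), against 19.7 to 73.1 between groups, and were kept as separate libraries. The largest standard errors over both lines were those of CYP51A1 (0.39), with few counts, and of ACSS2 (0.31) and NSDHL (0.22), whose effects differed between the lines.

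Members and gene lists were chosen with earlier results of these data known. Values per library are given for members called over both lines or in the difference between lines and for the 4 regulators. Of other lists, up to 3 called genes with the largest absolute change are named, apart from genes that are not reported here. The lists were other sterol synthesis and SREBP processing, non-sterol isoprenoids, sterol uptake and transport, liver X receptor and efflux, other fatty acid synthesis, glycerolipid assembly, fatty acid oxidation, and markers of fibroblasts, neural cells, mesendoderm, trophectoderm and pluripotency. They are described by counts and medians, with no set test. Alternatives were DESeq2 1.42.0, limma-voom (limma 3.58.1), other scalings and filters, each library left out, no line term, naive libraries summed and a replicate block.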

Additional observations from a re-analysis of the deposited data

Results flagged for a closer look

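The rise in naive cells differed between the lines for 2 of the 33 genes, by the test of the difference itself (edgeR). Both had a smaller rise in RH6, a direction in which 6.16% of all genes were called, so the share of the 33 is near that of all genes. For NSDHL the effect in RH6 minus that in RH5 was -0.90 on the log2 scale (adjusted p = 0.0338), with all 4 naive libraries above the primed library of their line. For ACSS2 it was -1.26 (adjusted p = 0.0266), again with all 4 naive libraries above. In RH6 that margin was small, with 10.4 and 7.80 CPM in naive and 7.18 CPM in primed cells. The rise of ACSS2 in RH6, 0.34, was not called (adjusted p = 0.273). Over the alternatives the adjusted p was 0.00786 to 0.145 for NSDHL and 0.00109 to 0.106 for ACSS2, and the highest of each, with DESeq2, missed the threshold.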

How the results depend on the processing

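Of the 23 genes called higher over both lines, HMGCS1, SQLE, IDI1, LSS, DHCR7, STARD4, MSMO1 and INSIG1 were called under every alternative run. Summing the naive libraries within each line, 8 of the 33 genes were called higher, 7 of them sterol and 0 fatty acid genes, and 1127 genes in all, against 23 and 4996. That fit has 4 libraries and fewer residual degrees of freedom. Leaving out 1 primed library gave up to 6704 genes called and up to 24 of the 33. Such a fit gives the effect in 1 line alone and is no check on the effect over both lines. Leaving out 1 naive library gave 2961 to 3345 genes called over both lines and 17 to 20 of the 33. By line, the ranges were 6417 to 6993 genes for RH6, with 23 to 24 of the 33, and 5638 to 7624 for RH5, with 19 to 24. They were 2421 to 3131 for the difference between lines, with 0 to 2 of the 33 called higher, and 3858 to 4751 for naive RH6 against naive RH5, with 3 to 4. DESeq2 called 4003 genes in RH6, 3905 in RH5, 1306 for the difference and 2856 between the naive lines, where 2 of the 33 were higher. The cause was not tested. The sign of PMVK turned with upper-quartile scaling (-0.014). Without primed RH6 and without primed RH5, where the fit gives the effect in the other line, PMVK had -0.23 and 0.42. In the same order TM7SF2 had -0.42 and 0.012, and SREBF1 0.35 and -0.049. None of these genes was called over both lines. Upper-quartile scaling moved the median of all genes in RH6 to -0.11, left 22 of the 33 called higher over both lines, and called 1 of the 33 lower in RH5, as did leaving out 3 of the naive libraries in turn.

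For naive RH6 against naive RH5, the replicate number as a block in the naive libraries alone gave 7405 genes called, with 5 of the 33 higher and 7 lower, against 4987, 4 and 4 without the block. The numbers only share a name, since nothing ties them across lines. The deviations of same-numbered libraries correlated at 0.141 over 19434 genes, with 2 numbers a line. No paired analysis was possible for naive against primed because the primed titles carry no replicate number. CYP51A1 had 109 counts in all, while its 3 pseudogene copies held 94.97% of the counts of gene and copies.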
